A study of Mus musculus with 31 samples.

Results

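The mature products of the microRNA precursor miR-139, mmu-miR-139-5p and mmu-miR-139-3p (here miR-139-5p and miR-139-3p), were followed in lungs of mice that breathed cigarette smoke or room air. They are 2 of 650 miRNAs on the array (611 of mouse), chosen by name with all 5 of their probes (3 for miR-139-5p and 2 for miR-139-3p) among 1857. Both passed the detection filter, as 2 of 270 miRNAs tested. They were taken up because earlier results of the same arrays were known, so smoke minus control values of the arms are given as a description with no test.

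Female mice of the inbred strain BALB/c, none with a stated mutation or transgene, were exposed to cigarette smoke for 4, 6, 8 or 12 weeks, and the controls breathed room air for the same times. Whole lungs were taken, and total RNA labelled with the dye Cy3 was hybridised to 1-colour Agilent miRNA arrays. There were 31 arrays in 8 groups: 15 smoke arrays (4 at each of 4, 6 and 8 weeks, and 3 at 12 weeks) and 16 control arrays (4 at each duration). No source used here gives the age of the mice, the smoke dose or whether each array is a separate animal. The p-values therefore measure the spread between arrays, which may be technical. In whole lung, fewer cells of a type and less RNA per cell cannot be told apart.

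A miRNA hairpin is cut by Drosha and Dicer into a duplex, and either strand can be loaded into an Argonaute protein, which it guides to messenger RNAs through its seed. The strand from the 5' side is called 5p and that from the 3' side 3p. Mir139 lies within Pde2a, the gene of a phosphodiesterase that breaks down cyclic nucleotides, and is known as an intronic miRNA that can be made from the host transcript. miR-139-5p is usually the more abundant arm, and in human cancers it is known as a miRNA that is often low. The role of miR-139-3p is less well described.

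In the RefSeq annotation of GRCm38.p6, Pde2a spans chromosome 7, 101421691 to 101512829, and contains Mir139 on the plus strand. The 2 mature sequences are shown because each arm can act only through its own seed, given here in capitals (bases 2 to 8).
miR-139-5p (chr7:101475382-101475403): uCUACAGUgcacgugucuccag
miR-139-3p (chr7:101475418-101475439): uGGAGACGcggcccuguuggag
Neither seed occurs at bases 2 to 8 of another mouse mature miRNA among the 1679 names in the RefSeq table, so the arms belong to no shared seed family there. In the 68-base hairpin below both arms are in capitals, and 14 bases separate them.
Mir139 hairpin (chr7:101475376-101475443): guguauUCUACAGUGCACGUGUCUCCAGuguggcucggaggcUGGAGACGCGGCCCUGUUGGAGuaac
In its computed fold (RNAfold, minimum free energy -35.6 kcal/mol), 19 bases of miR-139-5p pair with miR-139-3p. Both arms are 22 bases long. miR-139-3p has the higher share of G and C, 68.2%, against 54.5% in miR-139-5p.

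Array signal depends on the probe, so levels of the arms are not set against each other. Each level is the signal of the arm's brightest probe as a percent of that array's 75th percentile, taken over 385 probes detected on all arrays. The brightest probe of miR-139-5p was above background on all 31 arrays, with a signal of 102.3 to 270.0 scanner units. That of miR-139-3p was also above background on all 31 arrays, but at 18.33 to 53.26 units, not far above the floor of 0.936% of the 75th percentile. The other probe of miR-139-3p was above background on 0 arrays, so 1 probe carries every value of this arm. For miR-139-5p the second probe followed the first with r = 0.99 over 31 arrays, and the third was above background on 10.

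miR-139-3p was higher in smoke lungs at 3 of the 4 durations and close to control at 6 weeks. At 4 weeks it stood at 2.18%, 2.72%, 2.33% and 2.10% of the 75th percentile on the smoke arrays, against 1.55%, 1.47%, 1.42% and 1.14% on the control arrays. Every smoke array lay above every control array. The difference was 0.74 ± 0.14 log2 (SE, n = 4 and 4), or 1.67-fold, where the median of all miRNAs tested was 0.17 log2. Groups that do not overlap, in either direction, made up 30.0% of miRNAs at this duration.

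At 6 weeks miR-139-3p stood at 1.87%, 1.45%, 1.62% and 1.57% on the smoke arrays, against 1.49%, 1.34%, 1.39% and 1.82% on the control arrays. The groups overlapped, with 1 smoke array above all controls; at this duration 19.3% of miRNAs had groups that did not overlap. The difference was 0.11 ± 0.14 log2 (SE, n = 4 and 4), less than its error.

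At 8 weeks miR-139-3p stood at 1.65%, 1.52%, 1.29% and 2.30% on the smoke arrays, against 1.27%, 1.00%, 1.14% and 1.07% on the control arrays. Here too the groups did not overlap, which held for 17.0% of miRNAs, although the lowest smoke array was close to the highest control array. The difference was 0.57 ± 0.14 log2 (SE, n = 4 and 4), or 1.48-fold, and the SD of the smoke group, 0.35 log2, was larger than that of the control group, 0.15 log2.

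At 12 weeks miR-139-3p stood at 2.05%, 1.98% and 1.96% on the smoke arrays, against 1.41%, 1.65%, 1.46% and 1.73% on the control arrays. The 3 smoke arrays lay close together and above all 4 controls on these scaled values. In the series table deposited by the authors the groups overlapped. There the smoke arrays had 4.01, 3.88 and 3.61 log2, and the control arrays 3.58, 3.76, 3.65 and 3.74. The difference was 0.36 ± 0.15 log2 (SE, n = 3 and 4), or 1.28-fold. At this duration the groups of 42.6% of miRNAs did not overlap.

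miR-139-5p did not keep 1 direction. At 4 weeks it stood at 8.66%, 15.5%, 12.3% and 8.57% on the smoke arrays, against 7.43%, 8.77%, 8.41% and 6.44% on the control arrays. Smoke arrays 2 and 3 were high and the other 2 lay within the control range. The difference was 0.50 ± 0.22 log2 (SE, n = 4 and 4), and it was 0.16 without smoke arrays 2 and 3, the highest 2 arrays on the leading component of the 207 miRNAs detected on every array.

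At 6 weeks miR-139-5p stood at 10.9%, 10.1%, 10.71% and 10.2% on the smoke arrays, against 7.35%, 6.84%, 12.4% and 12.9% on the control arrays. The control arrays fell into a low pair and a high pair, and all smoke arrays lay between them. The difference was 0.14 ± 0.22 log2 (SE, n = 4 and 4).

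At 8 weeks it was the smoke group that was spread: miR-139-5p stood at 12.8%, 7.07%, 8.10% and 16.9% on the smoke arrays, against 8.76%, 7.77%, 8.00% and 7.94% on the control arrays. Smoke arrays 1 and 4 were above all controls and smoke array 2 below them. The difference was 0.38 ± 0.22 log2 (SE, n = 4 and 4).

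At 12 weeks the order was the other way. miR-139-5p stood at 9.13%, 9.30% and 11.0% on the smoke arrays, against 11.5%, 12.8%, 12.2% and 13.1% on the control arrays. All 3 smoke arrays lay below all 4 controls, at the duration where 42.6% of miRNAs had no overlap, with a difference of -0.34 ± 0.24 log2 (SE, n = 3 and 4), or 0.790-fold. With no scaling of the arrays it was -0.020 log2, where the median of all miRNAs was 0.20. Relative to the median of all miRNAs it was -0.26 log2 as reported and -0.22 with no scaling.

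**Figure D1:**
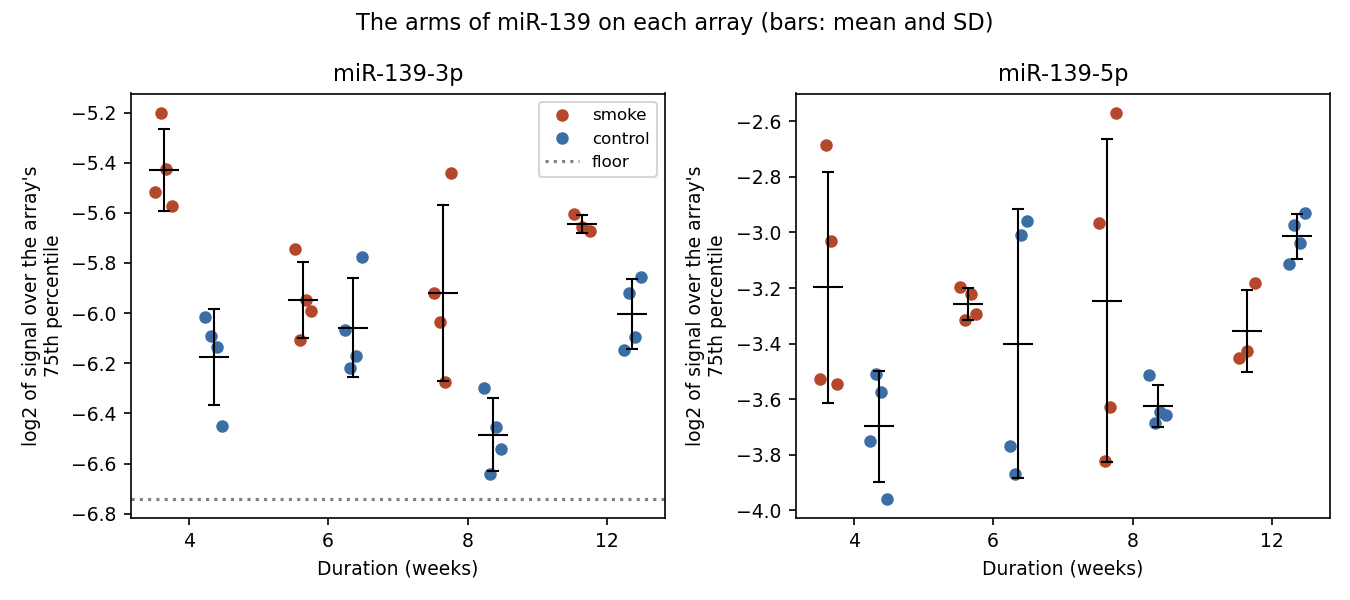
Level of miR-139-3p (left) and miR-139-5p (right) on each of 31 arrays, as log2 of the signal over the array's 75th percentile, by duration in weeks, with smoke left of control. Points are arrays, black bars the mean and SD of a group, and the dotted line the floor. On these values miR-139-3p smoke arrays lay above all controls at 4, 8 and 12 weeks, and miR-139-5p smoke arrays lay below all controls at 12 weeks. In the series table deposited by the authors the miR-139-3p groups of 12 weeks overlapped.

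Averaged over the durations with equal weight, miR-139-3p differed by 0.44 ± 0.069 log2 (SE, 15 smoke and 16 control arrays), or 1.36-fold, and miR-139-5p by 0.17 ± 0.11 log2, or 1.13-fold. The median over all miRNAs was -0.0062 log2. From the highest value down, miR-139-3p ranked 13 of 270 and miR-139-5p 51. Of the 15 smoke arrays, 9 had more miR-139-3p than any of the 16 control arrays, and 2 had more miR-139-5p. The arrays were on 4 slides, and 15 pairs of a smoke and a control array of 1 duration shared a slide. Within these pairs miR-139-3p was higher in smoke in 14 of 15 (-0.22 to 1.10 log2) and miR-139-5p in 9 of 15 (-0.48 to 1.09 log2). For miR-139-5p these were 4 of 4 pairs at 4 weeks and 0 of 3 at 12 weeks. The counts over all durations are given without the share of all miRNAs that reach them, so how unusual they are is not known. At single durations the groups of 17.0% to 42.6% of miRNAs did not overlap. On every slide the smoke samples filled 1 line of positions and the control samples the other, with the duration as the column, so array position and exposure cannot be told apart.

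**Figure D2:**
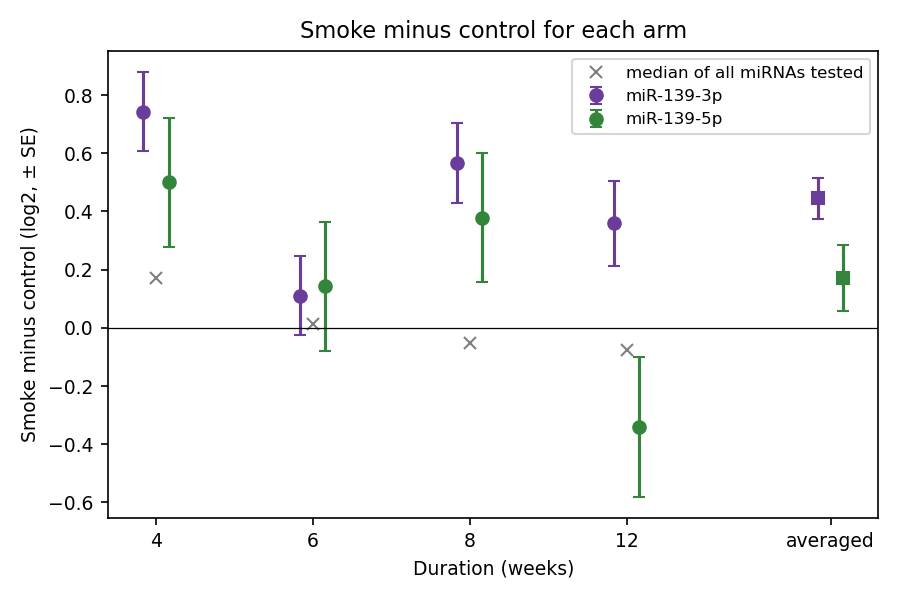
Smoke minus control (log2, bars are the SE) for miR-139-3p and miR-139-5p at 4, 6, 8 and 12 weeks and averaged (squares), with the median of all miRNAs tested at each duration (crosses). The arms lay close together at 6 weeks, at 0.11 and 0.14 log2, and farthest apart at 12 weeks, at 0.36 and -0.34.

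The miR-139-3p values changed with the processing. Averaged over the durations, miR-139-3p was at 0.17 log2 in the series table deposited by the authors and at -0.059 log2 after a normexp background correction, where the median of all miRNAs moved to -0.14. Relative to that median it was 0.085 log2 with normexp, against 0.45 as reported. Normexp added an offset of 50 units to every spot before scaling, where the reported signal of miR-139-3p was 18.33 to 53.26 units. The part of this offset in the normexp values was not tested. At 4 weeks the normexp value was -0.88 log2, or -0.14 relative to the median of all miRNAs, against 0.57 as reported. At 8 weeks miR-139-3p was at -0.25 log2 with no scaling of the arrays, but at 0.60 relative to the median of all miRNAs, against 0.62 as reported. Of the 14 other ways of processing tried for the average, the other 13 gave values above 0.

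**Figure D3:**
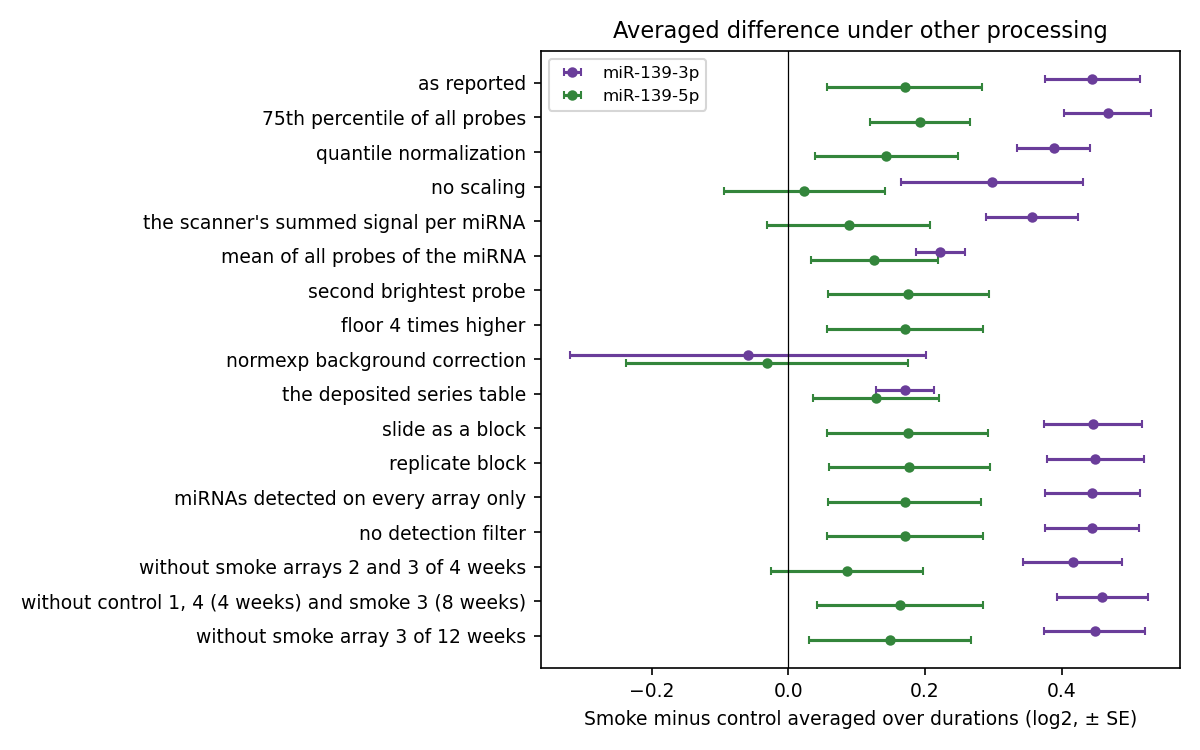
Smoke minus control averaged over the durations (log2, bars are the SE) for miR-139-3p and miR-139-5p as reported (top) and under each other way of processing. Values of miR-139-3p ran from -0.059 with normexp to 0.47 with scaling to the 75th percentile of all probes. A line with no miR-139-3p point could not be computed for that arm.

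Levels were also set in order over the 8 groups. For miR-139-3p the 4 smoke groups held the first 4 places, from a geometric mean of 2.32% at 4 weeks through 2.00% at 12 weeks and 1.65% at 8 weeks to 1.62% at 6 weeks. The control groups followed with 1.56% at 12 weeks, 1.5% at 6 weeks, 1.39% at 4 weeks and 1.12% at 8 weeks. Between neighbours in this order, only the step between smoke at 4 and at 12 weeks and the step between control at 4 and at 8 weeks were larger than the larger SD of the 2 groups. For miR-139-5p the smoke groups came right after the highest group, with 10.9% at 4 weeks, 10.54% at 8 weeks, 10.46% at 6 weeks and 9.78% at 12 weeks. Its control groups had the first place, with 12.4% at 12 weeks, and the last 3, with 9.47% at 6 weeks, 8.11% at 8 weeks and 7.71% at 4 weeks. No step between neighbours was larger than the larger SD.

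Room-air mice were compared with each other over the durations, a contrast that was not itself used to choose the arms. The same control arrays are part of the smoke minus control values known at that choice, so tests on them are not independent of it. The control arrays differ in the length of housing and in the column of the slide, which cannot be told apart. By limma's moderated F test over all 270 miRNAs, miR-139-3p had an unadjusted p of 0.00735 and an adjusted p of 0.0763, and miR-139-5p had 0.0212 and 0.127. Neither passed 0.05, while 18 of 270 miRNAs did (6.67%). The call for miR-139-3p changed with single arrays, at an adjusted p of 0.0479 by limma without smoke array 2 of 4 weeks, 0.0462 without smoke array 3 of 8 weeks and 0.0240 without smoke array 4 of 8 weeks, arrays that enter this test only through the shared spread.

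A single factor that multiplies all signals of an array cancels in the difference of its arms. Effects that are added to the signal or depend on its intensity do not cancel. On the log2 scale, miR-139-3p minus miR-139-5p averaged -2.23 ± 0.26 in smoke and -2.48 ± 0.14 in control at 4 weeks (SD, n = 4 each), and -2.69 ± 0.10 in smoke and -2.66 ± 0.41 in control at 6 weeks (SD, n = 4 each). It averaged -2.67 ± 0.33 in smoke and -2.86 ± 0.079 in control at 8 weeks (SD, n = 4 each). At 12 weeks it averaged -2.29 ± 0.18 in smoke (SD, n = 3) and -2.99 ± 0.065 in control (SD, n = 4). At 12 weeks the smoke arrays had -2.15, -2.23 and -2.49, against -3.03, -2.95, -3.06 and -2.93 on the control arrays, with no overlap; of 48 precursors with both arms tested, 29.2% showed none at this duration. At the other 3 durations the groups overlapped. Averaged over the durations, the smoke minus control value of miR-139-3p exceeded that of miR-139-5p by 0.27 ± 0.083 log2 (SE, 15 and 16 arrays). In slide pairs the difference of the arms was higher in smoke in 12 of 15, a count given without the share over all precursors. With the normexp correction this average was -0.028 log2, and in the series table deposited by the authors 0.042.

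**Figure D4:**
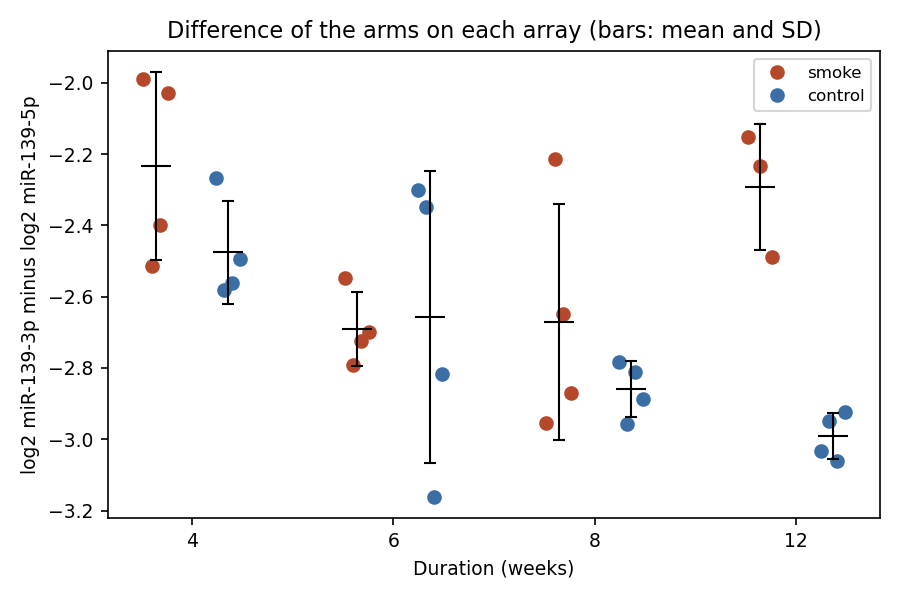
Log2 of miR-139-3p minus log2 of miR-139-5p on each array, by duration in weeks, with smoke left of control. Points are arrays and black bars the mean and SD. The control means go down with duration, at -2.48, -2.66, -2.86 and -2.99, and the smoke arrays of 12 weeks lie above all controls of that duration.

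In control lungs the difference of the arms was lower at each later duration, with means of -2.48, -2.66, -2.86 and -2.99 log2 at 4, 6, 8 and 12 weeks (n = 4 each). An exact permutation test of the F statistic between the 4 durations, with no order assumed, gave p = 0.0347 over all 2627625 ways to divide the 16 arrays. With values centred on slide means the exact p was 0.0438. The result was not firm: without control array 1 of 4 weeks the exact p was 0.0814, and it was above 0.05 without any 1 of 9 arrays (1, 3 and 4 of 4 weeks, 2 and 4 of 8 weeks, and each of the 4 of 12 weeks). It was 0.136 after quantile normalization. The 6 weeks group had the widest spread, with 2 arrays at -2.30 and -2.35 and 2 at -3.16 and -2.82.

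The arms were then correlated across the 16 control arrays, which had also served the tests between durations above. The permutation p-values are not adjusted for those tests or for the settings tried. The arms moved together with Pearson's r = 0.63 (permutation p = 0.00981) and Spearman's rho = 0.55 (permutation p = 0.0287). Without the 2 arrays farthest from the median of miR-139-5p, r was 0.47 (permutation p = 0.0924, n = 14), so on these values the call was lost. Leaving out the extremes of 1 arm narrows its range and can itself lower r. Whether the relation rested on those arrays is therefore not settled. As deviations from the duration means r was 0.56 (permutation p = 0.0230), and 0.33 (permutation p = 0.252) without the farthest 2 arrays. As deviations from the slide means it was 0.67 (permutation p = 0.00495), and 0.65 (permutation p = 0.0121) without the farthest 2. Both sets of deviations were shuffled over all arrays and not within a duration or slide. Their p-values do not count the means taken out and can be too small. Both arms are divided by the same 75th percentile of the array. With no scaling r was 0.74, and 0.78 (permutation p = 0.00088) without the farthest 2. The call thus held without the farthest 2 arrays under some settings and not under others. After quantile normalization r was 0.29 (permutation p = 0.270), and in the series table deposited by the authors 0.11 (permutation p = 0.693). With normexp it was 0.97, but there an offset of 50 units is added to both arms before scaling. Part of that value can follow from this construction, and that part was not tested.

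The arms also had different nearest neighbours among the 206 other miRNAs detected on every array, by Pearson's r over 31 arrays. This is a description, since these arrays share slides and scaling and include the smoke contrast known when the arms were chosen. Closest to miR-139-3p were miR-1897-5p (r = 0.85), miR-1904 (0.78), miR-155-5p (0.78), miR-532-3p (0.74) and miR-1892 (0.74). Of these, miR-155-5p is a miRNA induced in activated leukocytes. Each was called by limma in the averaged smoke contrast, as were 27.0% of all miRNAs. As deviations from the group means their r was 0.72, 0.62, 0.77, 0.74 and 0.64 in the same order. Their median levels were 1.88%, 3.49%, 6.77%, 2.78% and 2.92%, against 1.545% for miR-139-3p. The share of G and C was 63.6% in miR-1904 and miR-532-3p, 59.1% in miR-1892 and 34.8% in miR-155-5p, against 68.2% in miR-139-3p. For miR-1897-5p it was not available. The part of probe brightness or base content in these correlations was not tested. Closest to miR-139-5p were miR-223-3p (r = 0.91), a miRNA of neutrophils and other myeloid cells, miR-92a-3p (0.90), miR-214-3p (0.88), miR-652-3p (0.88) and miR-320-3p (0.87). None of these was called, and as deviations from the group means their r was 0.89, 0.94, 0.90, 0.91 and 0.90. The other arm came 32nd for miR-139-3p and 93rd for miR-139-5p (r = 0.59). As deviations from the group means the arms had r = 0.72 with each other, and the other arm came 15th for miR-139-3p and 96th for miR-139-5p. Over the other ways of processing tried it came between 25th and 100th for miR-139-3p and between 34th and 129th for miR-139-5p. Over all 31 arrays miR-139-5p followed the leading component of the 207 miRNAs detected on every array with r = 0.87, and miR-139-3p with r = 0.58. With log2 of the array's 75th percentile, which ran from 1018 to 3725 scanner units, r was -0.70 for miR-139-5p and -0.51 for miR-139-3p. The part of these array-wide measures in the values of the arms was not tested.

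Among 48 precursors with both arms tested, the arms had averaged smoke minus control values of the same sign in 30. By limma over all miRNAs, where 27.0% were called at an adjusted p of 0.05, both arms were called in 4 precursors, 1 arm in 16 and neither in 28. The median absolute difference between arms was 0.095 log2, and miR-139, with 0.27, had the 10th largest. The largest was in miR-193, with -0.81 ± 0.18 log2 (SE) for the 3p arm and -0.095 ± 0.082 for the 5p arm. Next came miR-362, with -0.33 ± 0.11 for 3p and 0.15 ± 0.051 for 5p, and miR-455, with -0.45 ± 0.0997 for 3p and 0.0016 for a 5p arm that was detected on only 9 arrays. The call of miR-362-3p was lost under 5 other ways of processing. That of miR-362-5p was lost under 6, and its sign changed under 1 more. By contrast miR-31 and miR-142, named here after their values were seen, had nearly equal arms, at 0.42 (3p) and 0.41 (5p) log2 for miR-31 and at -0.65 for both arms of miR-142. Over the control arrays the arms of miR-139 had the 16th highest correlation of these precursors, where the median was 0.31.

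**Figure D5:**
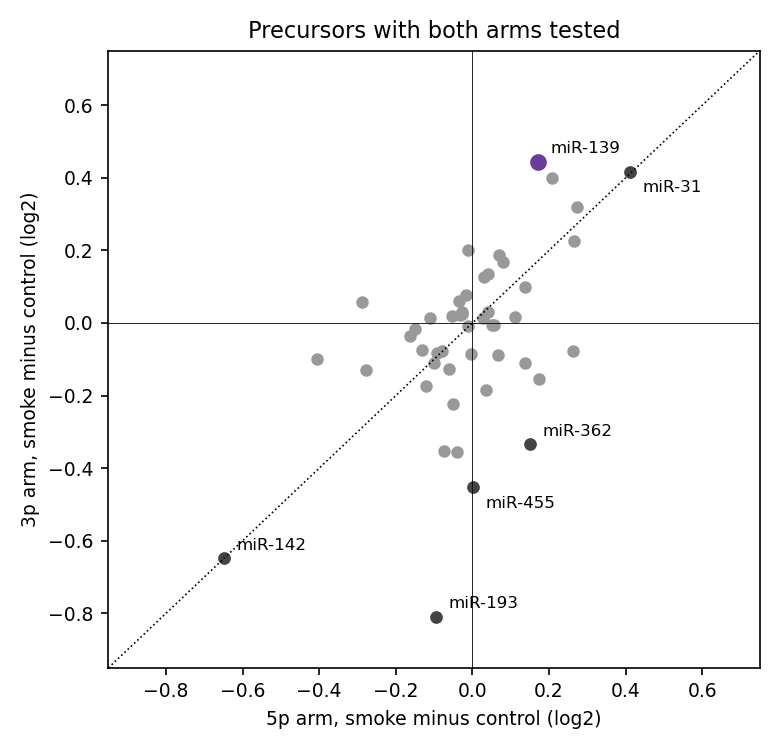
Averaged smoke minus control value (log2) of the 5p arm (horizontal) and the 3p arm (vertical) of each of 48 precursors, with equal values on the dotted line. miR-139, in purple, lies above the line at 0.17 and 0.44.

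Lung is rich in endothelium and miR-139 sits in an intron, so miRNAs of both kinds were set beside it. Of 11 endothelial miRNAs tested, by limma 0 rose and 2 fell in the average (1 higher and 2 lower at an unadjusted p under 0.05), and 9 did not pass, where 27.0% of all miRNAs were called, with a median of -0.060 log2 where that of all miRNAs was -0.0062. miR-126-3p, the abundant miRNA of the Egfl7 intron that supports vessel integrity, fell by 0.13 ± 0.037 log2 (SE), and miR-130a-3p, which acts in endothelial growth, fell by 0.12 ± 0.041, a call that was lost without any 1 of 13 arrays. miR-218-5p, of the Slit genes, was at 0.11 ± 0.052 and miR-503-5p at -0.092 ± 0.15, neither past the test. Of 34 miRNAs in introns of protein-coding genes, 1 rose, 5 fell and 28 did not pass (5 higher and 7 lower at an unadjusted p under 0.05), again against 27.0% called over all miRNAs, with a median of -0.032 log2. The one that rose was miR-342-3p of the Evl gene, at 0.32 ± 0.092 log2. Those that fell included miR-32-5p of Tmem245, at -0.76 ± 0.22, miR-455-3p of Col27a1, at -0.45 ± 0.0997, and miR-30e-5p of Nfyc, at -0.40 ± 0.12. With normexp none of these calls passed, from miR-126-3p to miR-30e-5p, and with no scaling miR-455-3p alone of them did. Scaling to the 75th percentile of all probes lost the calls of miR-126-3p, miR-130a-3p and miR-30e-5p, quantile normalization that of miR-126-3p, and the scanner's summed signal that of miR-342-3p. In all, the call of miR-130a-3p was lost under 6 other ways of processing.

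Markers of lung were present on every array, as both endothelial and all 5 epithelial markers were above background on all 31. Summed endothelial markers (miR-126-3p and miR-126-5p) ranged over 2620% to 3235% on smoke arrays and 2723% to 3700% on control arrays. Calls of markers are by limma in the average, where 27.0% of all miRNAs were called. Of 5 leukocyte markers, miR-155-5p rose, both arms of miR-142 fell and 2 did not pass (2 higher and 3 lower at an unadjusted p under 0.05). Leukocyte sums were 510.7% to 1075% on smoke arrays and 704.0% to 1024% on control arrays. Of the epithelial markers 1 of 5 rose (2 higher and 0 lower at an unadjusted p under 0.05). Epithelial sums were 623.0% to 844.3% on smoke arrays and 589.1% to 740.5% on control arrays. None of 3 tested striated muscle and 2 erythroid markers passed, with sums of 134.4% to 717.5% for muscle on smoke arrays and 84.77% to 678.7% on control arrays. Of 3 multiciliated markers miR-449a-5p, a miRNA of multiciliated airway cells, rose by 0.67 ± 0.094 log2 (SE), and the other 2 did not pass, with sums of 96.65% to 306.2% on smoke arrays and 126.2% to 263.9% on control arrays. Of 2 neural markers, miR-124-3p was above background on 0 arrays and miR-9-5p on 2. The liver marker miR-122 reached 296.6% on smoke array 3 of 12 weeks, without which miR-139-5p was at -0.43 log2 at 12 weeks. The part of these other cells in the values of miR-139 was not tested.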

How the data were processed

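Per the file headers, Feature Extraction 10.7.3.1 subtracted background from the spot intensity and detrended it, with no step between arrays. The deposited series table holds log2 values that the authors had normalized, by a method no source used here names. Per array it correlated with the scaled scanner values at 0.981 to 0.989, and its array medians were 2.71 to 2.85. Its exact scaling and centring remain unknown.

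Control spots and outlier spots (297 to 655 of 13715 per array) were dropped and spots averaged per probe. Detection of a probe on an array needed 50% of its spots above background. Signals were scaled to the array's 75th percentile, floored at log2 -6.74 and put on the log2 scale, and each miRNA was represented by its brightest probe. The filter, detection on 75% of arrays in at least 1 group, passed 272 miRNAs. Of these, 2 at the floor on every array could not be fitted, which left 270. Limma 3.58.1 in R 4.3.3 fitted 1 mean per group on 23 residual degrees of freedom, with Benjamini-Hochberg adjustment, and was tested on simulated data. Permutation tests of a correlation used 100000 draws. Sequences came from RefSeq, GRCm38.p6, and the fold from RNAfold 2.7.2.

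Groups and replicate numbers came from the sample titles. Beside the arms, the text names the 5 miRNAs closest to each arm, the 3 precursors whose arms differ most, and up to 4 examples of each list by size of the averaged difference. The members and lists were chosen with earlier results of these data known. Alternatives covered scaling, probe summary, floor, background correction, filter, slide, replicate number and arrays left out. The normexp correction, with an offset of 50, used the median spot signal in place of the planned mean signal, which was not used here. A smoke effect that differs between durations was not tested, since the arms were chosen on these contrasts. The number of arrays limits the precision.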

Additional observations from a re-analysis of the deposited data

Results flagged for a closer look

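miR-139-5p was marked because smoke arrays lay on opposite sides of control at different durations. At 12 weeks every smoke array lay below the control mean, while at 4 weeks and at 6 weeks every smoke array lay above it. Its smoke minus control value at 12 weeks minus that at 4 weeks was -0.84 log2, and 12 weeks minus 6 weeks was -0.48 log2. The difference was not tested in either case. No array of miR-139-3p, miR-139-5p or their difference stood apart from its group by Dixon's criterion, in 21 groups of 4 arrays checked, where chance marks about 1 group in 20.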

How the results depend on the processing

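The mean of the probes of miR-139-3p gave 0.22 log2 averaged, 0.37 at 4 weeks and 0.28 at 8 weeks, which follows from its construction, since 1 of the 2 probes is at the floor on every array. For this arm the deposited table gave 0.17 averaged, 0.27 at 4 weeks, 0.31 at 8 weeks and 0.15 at 12 weeks. Normexp gave -0.059 averaged, -0.88 at 4 weeks and -0.077 at 12 weeks, and no scaling -0.25 at 8 weeks and 0.68 at 12 weeks. For miR-139-5p, normexp gave -0.40 at 4 weeks and no scaling -0.44 at 8 weeks, but relative to the median of all miRNAs these were 0.34 (0.33 as reported) and 0.42 (0.43 as reported). Leaving out smoke arrays 2 and 3 of 4 weeks gave 0.16 at 4 weeks. The arms differed by -0.028 with normexp and 0.042 in the deposited table. The adjusted p (limma) between control durations fell under 0.05 for miR-139-3p with all-probe scaling (0.0474), quantile normalization (0.0319) and on leaving out smoke arrays 2 and 3 of 4 weeks (0.0378), and for miR-139-5p with all-probe scaling (0.00737). The exact p of the arm difference was 0.136 with quantile normalization and 0.0520 with the mean of probes. The correlation of the arms lost its call with all-probe scaling (0.37), quantile normalization (0.29) and the deposited table (0.11). miR-362-5p was at -0.12 with normexp. Where no construction or shared shift is named, the cause was not tested.

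Leaving out each array in turn gave, for miR-139-3p, 0.40 to 0.47 averaged, 0.65 to 0.80 at 4 weeks, 0.042 to 0.20 at 6 weeks, 0.41 to 0.69 at 8 weeks and 0.31 to 0.41 at 12 weeks. For miR-139-5p it gave 0.11 to 0.22 averaged, 0.33 to 0.62, -0.013 to 0.29, 0.15 to 0.57 and -0.43 to -0.29 in the same order. It gave 0.23 to 0.30 for the arm difference, 0.56 to 0.70 for the correlation, and adjusted p (limma) of 0.0240 to 0.182 for miR-139-3p and 0.0618 to 0.238 for miR-139-5p between control durations. For the exact p of the arm difference, a check chosen after seeing the data, it gave 0.00299 to 0.0814.

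The count of miRNAs called in the average, 73, was 29 with no scaling (8 higher and 21 lower, against 42 and 31), 48 with a floor 4 times higher and 12 with normexp. The count between control durations, 18, was 86 with all-probe scaling, 150 with no scaling, 4 with normexp, 34 in the deposited table, 64 when smoke arrays 2 and 3 of 4 weeks were left out, and 6 to 41 without 1 array.

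Same-numbered smoke and control arrays had correlations of -0.21 to 0.41 over 15 pairs, 7 of them over 0.1. In 6 pairs the correlation was best with the own number. Of the 15 pairs, 12 shared a slide, so a pairing by number and a shared slide cannot be told apart in these. With the replicate number as a block the averages were 0.45 for miR-139-3p, 0.18 for miR-139-5p and 0.27 for the arm difference, and the adjusted p (limma) between control durations 0.101 and 0.158. A floor 4 times higher and the second brightest probe gave no value for miR-139-3p, which lies at the floor under both. This arm has 1 probe above background.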
